A study of Mus musculus with 17 samples.

Results

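The genes described here mark the resident macrophages of mouse bone marrow: Vcam1, C1qa, C1qb, C1qc, Mrc1, Cd5l, Axl, Adgre1, Slc40a1 and Spic. They were chosen by name, with earlier results of these data known. They are 10 of the 18193 genes that carry a probe set of their own on the array, and they are covered by 17 of its 45101 probe sets. RNA was measured on 17 Affymetrix arrays in 2 batches. In batch 1, 3 arrays held GPI-negative (KO GPI-) and 3 held GPI-positive (KO GPI+) cells from the marrow of mice with a Pig-a knock-out. In batch 2, 4 arrays held GPI-negative cells of C57BL/6 recipients of knock-out marrow, 3 held GPI-positive cells of C57BL/6 recipients of wild-type marrow, and 4 held GPI-positive cells of untransplanted wild-type C57BL/6 mice.

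Pig-a encodes an enzyme subunit that starts the synthesis of the glycosylphosphatidylinositol (GPI) anchor, which holds a class of proteins on the cell surface. All 5 groups were sorted from femur and tibia marrow with fluorescein-labelled antibodies to the GPI-anchored proteins CD24, CD48 and Gr-1. The knock-out donor marrow for transplantation was first treated with 10 nM aerolysin, a toxin that lyses cells carrying GPI anchors, for 30 minutes, and its recipients had received 9 Gy of total body irradiation. The labels describe irradiation for those recipients alone. They give no ages, and neither the promoter nor the cell type in which Pig-a was deleted. Host cells that survive in a recipient keep their GPI anchors, so the GPI-positive fraction of the recipients of wild-type marrow can hold them. The GPI-negative fraction of the recipients of knock-out marrow was sorted against such cells. Between the recipients, Pig-a status and the presence of host cells cannot be told apart. Arrays are titled as biological replicates but no animal is named, so the p-values given here rest on the spread between arrays, which may be partly technical.

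Resident macrophages of the marrow sit at the centre of erythroblastic islands, where they hold developing red cells through adhesion molecules, engulf the nuclei these cells expel, and recycle iron from aged red cells. VCAM-1 on their surface binds an integrin on erythroblasts, ferroportin (Slc40a1) exports the recovered iron, and Spi-C is the transcription factor that drives the heme-recycling programme. The 3 chains of complement C1q, the mannose receptor Mrc1, the secreted scavenger protein Cd5l and the receptor tyrosine kinase Axl take part in recognising dying cells and debris, and Adgre1 encodes F4/80, the classical surface marker of mouse macrophages.

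C1qb, C1qc, Mrc1 and Cd5l are shown first by their promoters, since they are members that were lower in GPI-negative cells in each comparison below and have a window in the RefSeq table of assembly GRCm38.p6. Each window of 300 bases, read 5′ to 3′ on the gene's strand, ends just inside the transcript. The capitals mark GAGGAA, the core of the element that PU.1 and its relative Spi-C bind, and TGCTGA, which forms part of the element bound by Maf factors, or the reverse complement of either (TTCCTC and TCAGCA). The windows lie at chr4:136886151-136886450 on the minus strand (C1qb), chr4:136892865-136893164 on the minus strand (C1qc), chr2:14229164-14229463 on the plus strand (Mrc1) and chr3:87357631-87357930 on the plus strand (Cd5l).
C1qb: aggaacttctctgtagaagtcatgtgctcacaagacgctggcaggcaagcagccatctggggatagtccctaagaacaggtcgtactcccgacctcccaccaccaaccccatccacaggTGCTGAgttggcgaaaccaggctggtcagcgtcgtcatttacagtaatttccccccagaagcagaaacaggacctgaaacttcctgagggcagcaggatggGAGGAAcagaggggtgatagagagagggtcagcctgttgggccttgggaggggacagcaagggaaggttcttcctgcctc
C1qc: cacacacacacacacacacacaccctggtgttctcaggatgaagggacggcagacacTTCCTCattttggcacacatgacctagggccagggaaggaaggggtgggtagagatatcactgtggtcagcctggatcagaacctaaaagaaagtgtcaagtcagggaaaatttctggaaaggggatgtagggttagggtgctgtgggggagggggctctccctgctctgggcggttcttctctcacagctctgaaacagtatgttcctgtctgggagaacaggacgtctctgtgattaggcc
Mrc1: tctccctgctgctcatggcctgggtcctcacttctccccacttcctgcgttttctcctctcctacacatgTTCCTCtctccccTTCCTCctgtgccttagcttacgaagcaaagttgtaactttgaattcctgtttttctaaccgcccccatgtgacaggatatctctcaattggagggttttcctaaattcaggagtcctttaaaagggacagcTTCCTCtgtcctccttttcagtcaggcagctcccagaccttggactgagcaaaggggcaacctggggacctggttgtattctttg
Cd5l: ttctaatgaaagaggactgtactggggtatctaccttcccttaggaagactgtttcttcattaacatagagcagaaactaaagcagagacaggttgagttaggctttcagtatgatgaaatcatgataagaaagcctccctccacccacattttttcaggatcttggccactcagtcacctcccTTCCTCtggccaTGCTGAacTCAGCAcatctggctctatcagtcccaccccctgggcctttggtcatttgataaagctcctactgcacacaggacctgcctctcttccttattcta

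The C1qb window held GAGGAA 30 bases and TGCTGA 131 bases before the transcript's start. In C1qc the single GAGGAA lay 193 bases before the start on the opposite strand, and in Mrc1 there were matches on the opposite strand at 180, 167 and 35 bases. The Cd5l window held GAGGAA on the opposite strand 66 bases before the start, and TGCTGA at 54 bases and, on the opposite strand, at 46 bases. Of the 6 members with a window, which also include Axl and Spic, 5 held GAGGAA on either strand and 3 held TGCTGA; no match overlapped another. Among all 32851 windows of the table, 28.3% held GAGGAA and 19.5% held TGCTGA. These are matches of letters and say nothing of binding in these cells. In the same annotation C1qb, C1qc and C1qa are immediate neighbours on chromosome 4, and the other members lie apart from each other.

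The targeted gene followed the labels. The brighter of the Piga probe sets read 0.579 to 0.66 on the KO GPI- arrays, against 1.15 to 1.32 on the KO GPI+ arrays, on the deposited log10 scale. It read 0.0388 to 0.231 in recipients of knock-out marrow, against 1.16 to 1.23 in recipients of wild-type marrow and 1.18 to 1.25 in wild type. On both Piga probe sets no GPI-negative array reached a GPI-positive array of its batch. The KO GPI- values of the brighter probe set were still above the median of batch 1 arrays, 0.515. Those of the recipients of knock-out marrow were below the 40th percentile of batch 2 arrays, 0.311. The source of the signal left in KO GPI- was not tested. The KO GPI+ arrays were unusually alike, with a median standard deviation (SD) per gene of 0.0636 on the log2 scale over the brighter genes, against 0.136 to 0.174 in the other 4 groups. The KO GPI- arrays stood apart in the control transcripts added at hybridisation, whose 18 probe sets averaged 8.28 ± 0.336 on the log2 scale (SD, n = 3 arrays), against 6.31 ± 0.251 in KO GPI+ (n = 3) and group means of 6.38 to 6.77 in batch 2. Their Gapdh 3′ minus 5′ signal also differed, at -0.163 ± 0.127 in KO GPI- against -1.02 ± 0.0169 in KO GPI+ on the log2 scale. The part of these differences in the batch 1 results was not tested.

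All 10 members were tested among 14245 genes, each through its brightest probe set, with limma and Benjamini-Hochberg adjustment over all genes at a threshold of 0.05. In KO GPI- against KO GPI+ cells, 9 members fell and 0 rose (0 also at an unadjusted p under 0.05), where 14.8% of all genes fell and 14.8% rose. The exception was Spic. In recipients of knock-out marrow against recipients of wild-type marrow, 6 fell and 0 rose (1, Adgre1, was higher at an unadjusted p under 0.05), where 3.45% of all genes fell and 3.95% rose. Against wild type, 9 fell and 0 rose in recipients of knock-out marrow (Adgre1 again higher at an unadjusted p under 0.05), where 5.55% of all genes fell and 6.84% rose. Vcam1, C1qa, C1qb, C1qc, Mrc1 and Cd5l were the 6 that fell in all 3. Both comparisons of batch 2 use the same GPI-negative arrays and are not separate evidence. Median log2 differences of the members were -0.93, -0.72 and -0.96 in these comparisons, against medians of -0.01, -0.01 and 0.02 over all genes. Sorted marrow is a mixture, and fewer macrophages cannot be told apart from less of these RNAs in each macrophage.

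**Figure D1:**
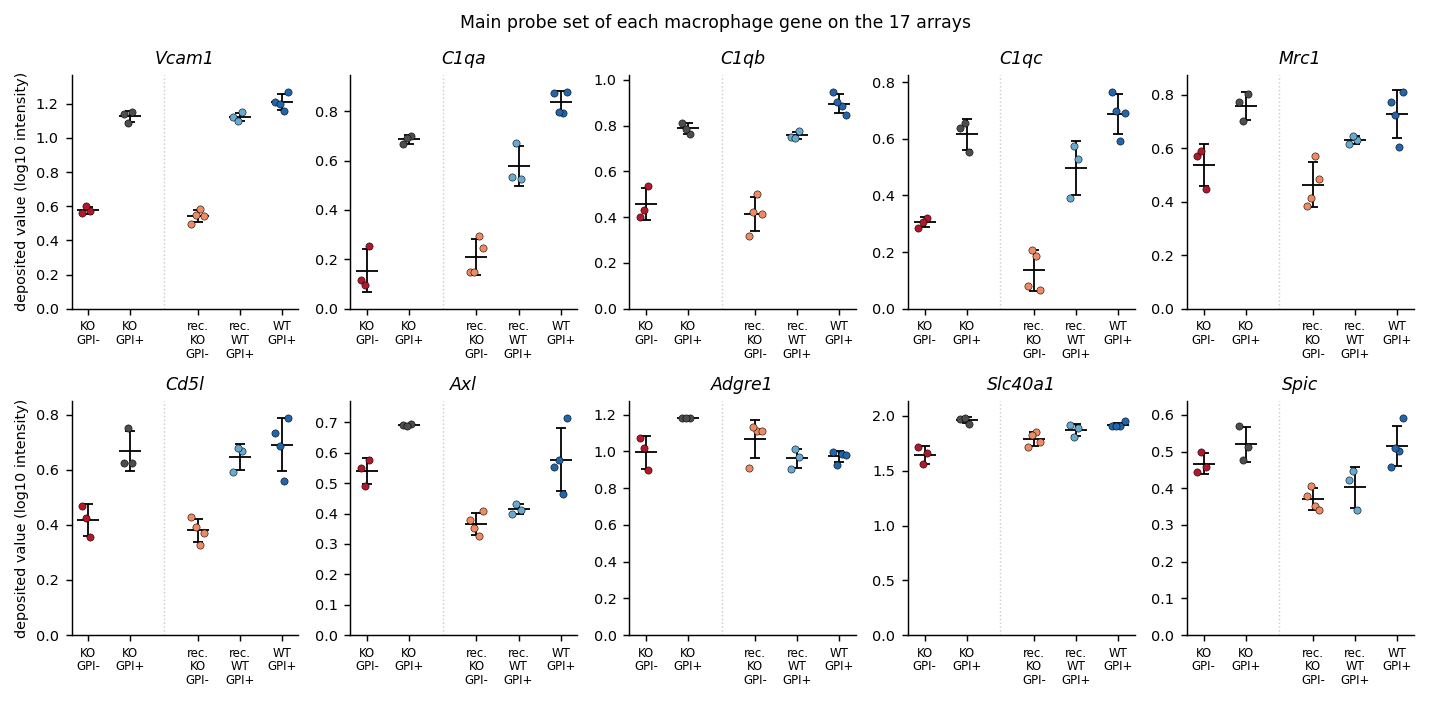
Deposited log10 value of each member's brightest probe set on every array (points), by group, with the group mean and SD (bars); each panel has its own y axis. Vcam1 and the C1q genes of the GPI-negative groups lie below all arrays of the GPI-positive groups of their batch, while the Adgre1 values of the recipients of knock-out marrow overlap those of both groups set against them.

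Vcam1, the adhesion molecule through which island macrophages hold erythroblasts, read 0.561, 0.571 and 0.601 on the KO GPI- arrays, against 1.14, 1.15 and 1.09 on the KO GPI+ arrays. In batch 2 its log10 values were 0.497, 0.582, 0.55 and 0.542 in recipients of knock-out marrow, against 1.12, 1.15 and 1.1 in recipients of wild-type marrow and 1.21, 1.16, 1.2 and 1.27 in wild type. Every GPI-negative array was thus below every GPI-positive array of its batch. The log2 difference was -1.81 ± 0.11 (standard error, SE; 3.52-fold lower; limma adjusted p = 3.07e-10) in KO GPI- against KO GPI+. It was -1.94 ± 0.11 (3.82-fold lower; limma adjusted p = 2.68e-10) in recipients of knock-out marrow against recipients of wild-type marrow, and -2.22 ± 0.10 (4.65-fold lower; limma adjusted p = 4.06e-12) against wild type. Vcam1 had 2 other probe sets, which gave the same direction with smaller differences, of -1.18 and -0.97 on the log2 scale in batch 1, -1.16 and -0.85 between the recipients, and -1.39 and -0.97 against wild type. All passed the threshold in the fit over probe sets. The third probe set was below the 40th percentile in KO GPI-, and floored there it was at least 1.67-fold lower than in KO GPI+.

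C1qa, C1qb and C1qc encode the A, B and C chains that assemble into C1q, the recognition molecule of the classical complement pathway, which macrophages secrete. C1qa read 0.115, 0.254 and 0.0948 in KO GPI-, against 0.666, 0.7 and 0.691 in KO GPI+ on the log10 scale. It read 0.148, 0.294, 0.148 and 0.247 in recipients of knock-out marrow, against 0.534, 0.526 and 0.671 in recipients of wild-type marrow and 0.875, 0.794, 0.798 and 0.878 in wild type. The 3 groups of batch 2 did not overlap, with recipients of wild-type marrow between the others. C1qa differed by -1.76 ± 0.17 on the log2 scale in KO GPI- against KO GPI+ (limma adjusted p = 1.3e-07), and in recipients of knock-out marrow by -1.22 ± 0.16 against recipients of wild-type marrow (limma adjusted p = 5.2e-05) and -2.08 ± 0.15 against wild type (limma adjusted p = 1.98e-08). The GPI-negative means lay below the 40th percentile of their arrays, so that their exact level is uncertain. With values floored at that percentile, C1qa was at least 1.83-fold lower in KO GPI-, and in recipients of knock-out marrow at least 1.84-fold lower than in recipients of wild-type marrow and at least 3.35-fold lower than in wild type.

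C1qb read 0.401, 0.535 and 0.432 in KO GPI-, against 0.813, 0.766 and 0.785 in KO GPI+. In batch 2 it read 0.316, 0.5, 0.424 and 0.416 in recipients of knock-out marrow, against 0.751, 0.775 and 0.746 in recipients of wild-type marrow and 0.948, 0.887, 0.905 and 0.847 in wild type, again with no overlap among the 3 groups. The log2 differences were -1.10 ± 0.15, -1.14 ± 0.14 and -1.60 ± 0.13 in the 3 comparisons, with limma adjusted p of 6.73e-06, 1.66e-05 and 6.88e-08. Its other 2 probe sets also fell in each, by 1.59 and 0.98 on the log2 scale in KO GPI- against KO GPI+. They fell by 1.24 and 1.14 between the recipients, and by 2.13 and 1.93 against wild type. The first was below the 40th percentile in KO GPI-, where the floored values gave at least 2.17-fold lower. The second was below it in recipients of knock-out marrow, where they gave at least 1.92-fold lower than in recipients of wild-type marrow and at least 3.31-fold lower than in wild type.

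C1qc read 0.286, 0.321 and 0.308 in KO GPI-, against 0.639, 0.552 and 0.656 in KO GPI+. Its log10 values in batch 2 were 0.0805, 0.187, 0.208 and 0.0661 in recipients of knock-out marrow, against 0.392, 0.528 and 0.576 in recipients of wild-type marrow and 0.766, 0.594, 0.697 and 0.69 in wild type. Here too the batch 2 groups were in separate ranges, recipients of knock-out marrow lowest and wild type highest. The differences were -1.03 ± 0.18, -1.21 ± 0.17 and -1.83 ± 0.16 on the log2 scale, with limma adjusted p of 0.000158, 9.06e-05 and 2.46e-07. Its GPI-negative means were also below the 40th percentile, and the floored values gave at least 1.56-fold, 1.54-fold and 2.37-fold lower.

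Mrc1, which binds mannose-bearing ligands, and Cd5l, which macrophages secrete and which binds debris and lipids, differed less. Mrc1 read 0.572, 0.446 and 0.59 in KO GPI-, against 0.774, 0.801 and 0.7 in KO GPI+. In batch 2 it read 0.382, 0.571, 0.412 and 0.486 in recipients of knock-out marrow, against 0.615, 0.632 and 0.646 in recipients of wild-type marrow and 0.772, 0.605, 0.725 and 0.81 in wild type. No GPI-negative array reached a GPI-positive one of its batch, although the second recipient of knock-out marrow came close. The log2 differences were -0.74 ± 0.18, -0.56 ± 0.17 and -0.88 ± 0.16, with limma adjusted p of 0.0035, 0.0467 and 0.00063. The second of these lost its call in 12 of 19 alternative settings, where adjusted p ranged from 0.0195 to 0.142 (0.076 with replicate number as a block).

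Cd5l read 0.47, 0.355 and 0.427 in KO GPI-, against 0.626, 0.626 and 0.754 in KO GPI+. It read 0.429, 0.327, 0.393 and 0.372 in recipients of knock-out marrow, against 0.592, 0.668 and 0.68 in recipients of wild-type marrow and 0.733, 0.561, 0.686 and 0.788 in wild type. The GPI-negative arrays were lowest in both batches without overlap, and the GPI-positive groups of batch 2 overlapped each other. Its log2 differences of -0.83 ± 0.17, -0.88 ± 0.16 and -1.04 ± 0.15 had limma adjusted p of 0.000962, 0.0015 and 9.71e-05.

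Axl, a receptor that recognises dying cells through a bridging ligand, read 0.551, 0.576 and 0.491 in KO GPI-, against 0.692, 0.696 and 0.689 in KO GPI+. In batch 2 it read 0.379, 0.325, 0.351 and 0.409 in recipients of knock-out marrow, against 0.398, 0.413 and 0.433 in recipients of wild-type marrow and 0.553, 0.464, 0.576 and 0.714 in wild type. The recipients' values ran into each other and both lay below every wild-type array. Axl fell by 0.51 ± 0.16 on the log2 scale in KO GPI- (limma adjusted p = 0.0204), a call that was lost without the third KO GPI- array (0.0816) or any 1 of the KO GPI+ arrays (0.051 to 0.0562). It fell by 0.70 ± 0.14 in recipients of knock-out marrow against wild type (limma adjusted p = 0.00174), while against recipients of wild-type marrow the difference was -0.16 ± 0.15 (limma adjusted p = 0.634). A second Axl probe set was below the filter on low values and was not tested; its log10 values were 0.0429 to 0.316 over the 17 arrays.

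Slc40a1 encodes ferroportin, the iron exporter. It read 1.72, 1.66 and 1.56 in KO GPI-, against 1.97, 1.93 and 1.98 in KO GPI+. In batch 2 the values were 1.72, 1.85, 1.83 and 1.76 in recipients of knock-out marrow, against 1.92, 1.89 and 1.81 in recipients of wild-type marrow and 1.91, 1.91, 1.91 and 1.95 in wild type. The groups of batch 1 were well apart, and the recipients overlapped. Slc40a1 fell by 1.03 ± 0.14 on the log2 scale in KO GPI- (limma adjusted p = 7.02e-06) and by 0.42 ± 0.12 in recipients of knock-out marrow against wild type (limma adjusted p = 0.0216). The second call was lost without the first or the fourth recipient of knock-out marrow (0.0711 and 0.0682) and without the fourth wild-type array (0.0691). Against recipients of wild-type marrow the difference was -0.27 ± 0.13 (limma adjusted p = 0.255). A second probe set gave -1.48, -0.62 and -0.09 in the same order, with the last again not called (limma adjusted p = 0.836).

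Adgre1 was the member whose differences pointed opposite ways in the 2 batches. It read 1.07, 0.896 and 1.02 in KO GPI-, against 1.18 on each KO GPI+ array. It read 0.91, 1.11, 1.13 and 1.11 in recipients of knock-out marrow, against 0.904, 0.968 and 1.01 in recipients of wild-type marrow and 0.998, 0.987, 0.927 and 0.978 in wild type. Of the 4 recipients of knock-out marrow, 3 were above every other array of batch 2 and the first was lower than all wild-type arrays. Adgre1 fell by 0.62 ± 0.17 on the log2 scale in KO GPI- (limma adjusted p = 0.00743; 0.05 without the second KO GPI- array). In recipients of knock-out marrow it was 0.35 ± 0.16 above recipients of wild-type marrow (limma adjusted p = 0.218) and 0.31 ± 0.15 above wild type (limma adjusted p = 0.194). Without the first recipient these differences were 0.52 (limma adjusted p = 0.0147) and 0.48 (limma adjusted p = 0.0122), both called.

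Spic, the transcription factor of heme recycling, passed the threshold through its brighter probe set only against wild type. On that probe set it read 0.445, 0.458 and 0.499 in KO GPI-, against 0.571, 0.513 and 0.476 in KO GPI+, which overlap. Its values were 0.38, 0.353, 0.407 and 0.341 in recipients of knock-out marrow, against 0.422, 0.34 and 0.446 in recipients of wild-type marrow and 0.459, 0.501, 0.51 and 0.591 in wild type. The recipients overlapped each other, and both lay below every wild-type array. The log2 difference was -0.18 ± 0.15 in batch 1 (limma adjusted p = 0.404), -0.11 ± 0.14 between the recipients (0.753) and -0.48 ± 0.13 against wild type (0.0135; 0.0625 without the fourth wild-type array). The second Spic probe set read 0.158, 0.216 and 0.00684 in KO GPI-, against 0.277, 0.312 and 0.344 in KO GPI+. Both group means were below the 40th percentile, so no fold is given, although limma called the difference (adjusted p = 0.0138). Against wild type the 2 probe sets gave different calls, the second at -0.35 on the log2 scale (limma adjusted p = 0.193).

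**Figure D2:**
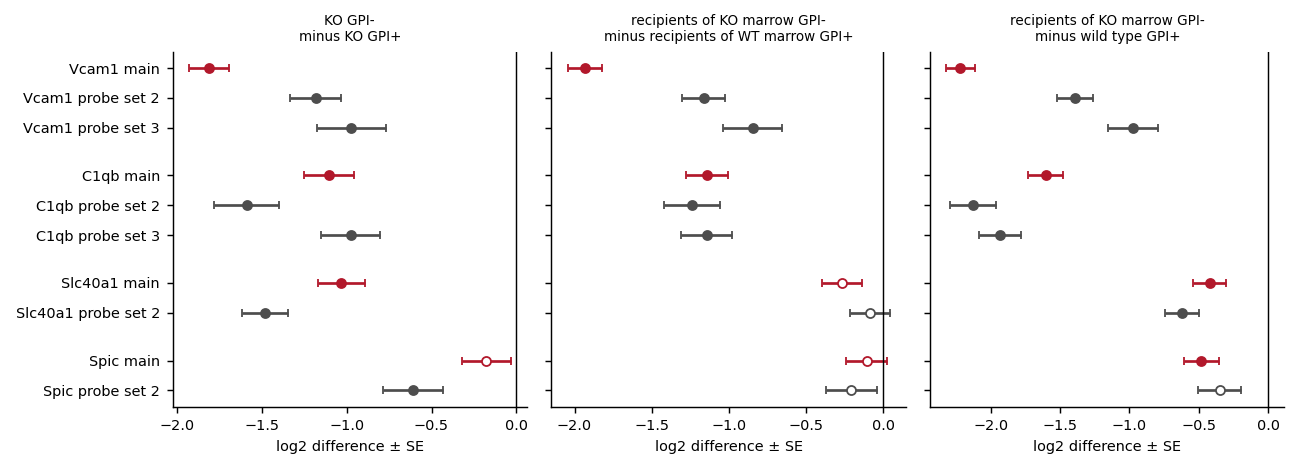
Log2 differences of all kept probe sets of Vcam1, C1qb, Slc40a1 and Spic where GPI-negative cells were compared (points, with the standard error as bars; filled where the limma adjusted p over probe sets is under 0.05). The 3 probe sets of Vcam1 and of C1qb lie below 0 in each comparison, and both Slc40a1 probe sets lie near 0 between the recipients, at -0.27 and -0.09. The second Spic probe set was below the 40th percentile in both groups of batch 1.

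Over probe sets, 15 of the 16 that passed the filter, the low second Spic probe set included, fell in KO GPI- (13.4% of all probe sets fell), 9 fell between the recipients (1.76%) and 14 fell against wild type (3.97%). Exact two-sided permutation tests of each member's group means gave p = 0.1 for 9 members in batch 1, the smallest that 3 against 3 arrays allow, and p = 0.2 for Spic. Between the recipients they gave the smallest p possible, 0.02857, for Vcam1, C1qa, C1qb, C1qc and Cd5l, and 0.05714 for Mrc1. The groups were separate, with the GPI-negative one lower, for 9, 6 and 9 members in the 3 comparisons, against 21.2%, 7.52% and 7.04% of all genes.

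**Figure D3:**
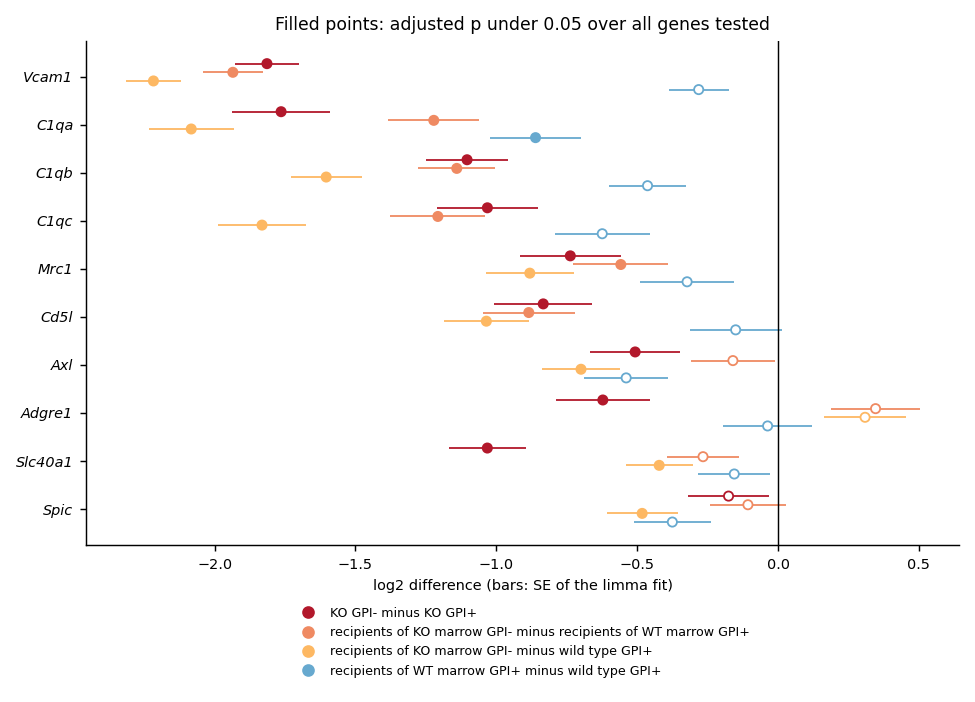
Log2 difference of each member with its standard error in the 4 comparisons, filled where the limma adjusted p over all genes is under 0.05. The differences of Vcam1 lie between -1.81 and -2.22 where GPI-negative cells were compared and at -0.28 between the GPI-positive groups.

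The GPI-positive groups of batch 2 differ by transplantation and not by Pig-a, and here the recipients are set against untransplanted mice. C1qa fell, by 0.86 ± 0.16 on the log2 scale (1.82-fold; limma adjusted p = 0.0141), 1 of 10 members, where 0.393% of all genes fell and 0.449% rose. By limma 0 members rose, also at an unadjusted p under 0.05. Another 5 members were lower at an unadjusted p under 0.05. For 6 members, Vcam1, C1qa, C1qb, C1qc, Axl and Spic, every recipient was below every wild-type array, a pattern found in 5.86% of all genes. The differences of C1qc, Axl and C1qb were -0.62 ± 0.17, -0.54 ± 0.15 and -0.46 ± 0.14 (limma adjusted p = 0.0825, 0.0892 and 0.114). The other 2 C1qb probe sets did fall, by 0.89 and 0.79 (limma adjusted p = 0.029 and 0.0309), so that 3 of 16 probe sets fell, against 0.318% of all probe sets. Vcam1 differed by -0.28 ± 0.11 (limma adjusted p = 0.223), with its exact permutation p at 0.05714. The call for C1qa was lost with replicate number as a block (0.0625) and without the first or second recipient or the first wild-type array (0.0986, 0.0723 and 0.066). The member median was -0.35 on the log2 scale, against 0.02 over all genes.

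Whether the GPI-negative difference itself differed between knock-out mice and recipients was tested as the batch 1 difference minus the difference between the recipients. Here and below, this contrast crosses the 2 batches, which were normalized separately. Their hybridisation controls had slopes of 1 and 1.15 against concentration. Batch, transplantation and the aerolysin treatment of the knock-out graft cannot be told apart in it. Adgre1 gave -0.97 ± 0.23 (limma adjusted p = 0.00511) and Slc40a1 gave -0.77 ± 0.19 (0.00649); 9.96% of all genes were lower by this test and 9.04% higher. The second Slc40a1 probe set gave -1.39 (limma adjusted p = 6.87e-05), 1 of 3 member probe sets that were lower, against 8.23% of all probe sets. With the KO GPI+ arrays, which were so alike, averaged to 1, adjusted p for Adgre1 and Slc40a1 was 0.0627 and 0.0723. For Vcam1 the value was 0.12 ± 0.16 (limma adjusted p = 0.645), and for C1qa -0.54 ± 0.24 (0.118). The C1qa value rests on GPI-negative means below the 40th percentile and depended on the setting: it was 0.01 with values floored there (limma adjusted p = 0.971), and it was called with array weights (-0.68, 0.0344) and without the second KO GPI- array (-0.71, 0.0388). With that averaging, 6 members in place of 9 fell in KO GPI-, since Mrc1, Axl and Adgre1 were no longer called (limma adjusted p = 0.08, 0.213 and 0.134).

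**Figure D4:**
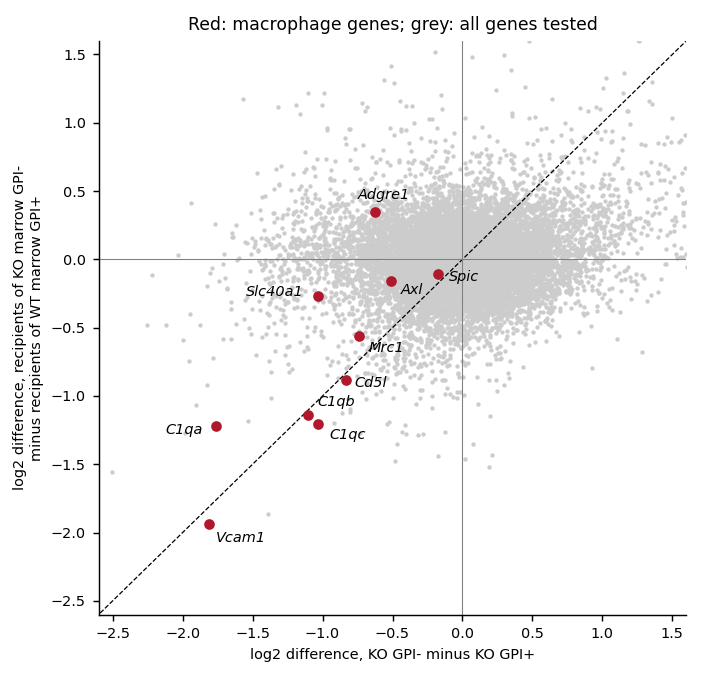
Log2 difference of KO GPI- from KO GPI+ (x axis) against that of recipients of knock-out marrow from recipients of wild-type marrow (y axis) for 14102 genes (grey; another 143 lie outside the axes) and the members (named); the dashed line marks equal differences. Vcam1, C1qb, C1qc and Cd5l lie near the line, and Adgre1 and Slc40a1 lie above it.

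Other genes of the resident macrophage programme were called less uniformly, and some were too dim to show a fall. Siglec1, Vsig4 and Clec4f had batch 2 group means of 0.207 to 0.29, below the 40th percentile of those arrays, 0.311. Of 13 further resident macrophage genes tested, 4 fell and 1 rose in KO GPI-, and 1 fell between the recipients. Against wild type 3 fell and 1 rose in recipients of knock-out marrow. Of all genes, 14.8% fell and 14.8% rose in KO GPI-. Between the recipients 3.45% fell and 3.95% rose, and against wild type 5.55% fell and 6.84% rose. These shares apply to the gene lists that follow too. The median log2 differences of the 13 genes were -0.29, -0.03 and -0.20. Fcgr4, an activating receptor for immunoglobulin G, had the largest difference in batch 1. It read 1.29, 0.979 and 1.09 in KO GPI-, against 1.61, 1.61 and 1.63 in KO GPI+, and fell by 1.65 ± 0.20 (limma adjusted p = 2.76e-06). Between the recipients it was 0.19 ± 0.19 (limma adjusted p = 0.666) and against wild type 0.21 ± 0.18 (0.521), and the batch 1 difference was lower than that of the recipients by 1.84 ± 0.28 (adjusted p = 0.000134). The 6 neutrophil markers given below also fell in KO GPI-, and their part in the Fcgr4 difference was not tested. The lectin Lgals3 fell by 0.64 in KO GPI- and rose by 0.53 in recipients of knock-out marrow against wild type. The scavenger receptor Stab2 rose by 0.50 in KO GPI-, and Il18bp, which encodes a decoy for interleukin 18, fell by 0.43. Fcna encodes a ficolin that macrophages secrete as a recognition molecule of the lectin complement pathway. Alone of the 13 genes it fell each time, by 0.92 ± 0.15, 1.20 ± 0.14 and 1.52 ± 0.13. It read 0.544, 0.512 and 0.454 in KO GPI-, against 0.835, 0.75 and 0.755 in KO GPI+. In batch 2 it read 0.332, 0.479, 0.474 and 0.423 in recipients of knock-out marrow, against 0.73, 0.8 and 0.833 in recipients of wild-type marrow and 0.895, 0.853, 0.822 and 0.973 in wild type, with the GPI-negative arrays lowest throughout. The hemoglobin scavenger receptor Cd163 fell in recipients of knock-out marrow against wild type by 0.83 ± 0.14, and in the recipients of wild-type marrow by 0.70 ± 0.15 against the untransplanted mice (limma adjusted p = 0.0298). The prostaglandin-degrading enzyme Hpgd fell by 0.80 and 0.85 in the same comparisons. Cd163 was not called in KO GPI- (-0.16 ± 0.16; limma adjusted p = 0.507).

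Not every defining marker of these cells was measured well. Siglec1, the sialoadhesin that island macrophages carry, read 0.106 to 0.408 in KO GPI-, against 0.299 to 0.384 in KO GPI+, below the 40th percentile of batch 1 arrays, 0.423. Its log2 differences were -0.36 ± 0.24, -0.14 ± 0.23 and -0.20 ± 0.21 (limma adjusted p = 0.293, 0.818 and 0.637). Marco and Timd4 did not pass the filter. Mertk, the receptor for dying cells and expelled nuclei, was -0.43 ± 0.22, -0.29 ± 0.20 and -0.36 ± 0.19 (limma adjusted p = 0.144, 0.491 and 0.247).

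Genes shared by monocytes and macrophages took another course in the recipients. Of 10 such genes, 4 fell and 0 rose in KO GPI- (1 was higher at an unadjusted p under 0.05), namely the integrin chain Itgam (-1.62), the receptor Sirpa (-1.08), Cd14 (-0.81) and the immunoglobulin receptor Fcgr1 (-0.72). There all 6 neutrophil markers fell too, while of 6 monocyte markers 2 rose and 1 fell. The part of these cells in the 4 falls was not tested. In recipients of knock-out marrow 5 of the 10 genes rose against each of the other groups of batch 2 and 0 fell (0 also at an unadjusted p under 0.05). They included Fcgr1 (1.14 and 0.70 on the log2 scale), the lysosomal protein Cd68 (0.96 and 1.00), the pore-forming Mpeg1 (1.07 and 0.84) and Cd14, itself GPI-anchored (0.95 and 1.11). Csf1r, the receptor for the growth factor of the macrophage lineage, read 2.17, 2.43, 2.33 and 2.39 in recipients of knock-out marrow, against 2.12, 2.05 and 2.18 in recipients of wild-type marrow and 2.1 to 2.19 in wild type. It rose by 0.71 ± 0.17 against recipients of wild-type marrow (limma adjusted p = 0.012) and by 0.62 ± 0.16 against wild type (0.0126), and was -0.39 ± 0.18 in KO GPI- (0.123). Its change differed between knock-out mice and recipients (-1.10 ± 0.25; limma adjusted p = 0.0039). The median log2 difference of the 10 genes was -0.25 in KO GPI-, 0.43 between the recipients and 0.41 against wild type. In recipients of knock-out marrow the 6 members that fell in every comparison therefore stood beside phagocyte genes that rose.

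Genes of heme and iron handling fell mainly in knock-out mice, where 7 of 12 fell and 0 rose (0 also at an unadjusted p under 0.05). Of all genes, 14.8% fell and 14.8% rose there. All 6 neutrophil markers fell in the same comparison, as given below, and their part in this list was not tested. Heme oxygenase 1 (Hmox1) read 0.926, 0.703 and 0.471 in KO GPI-, against 1.01, 1 and 0.996 in KO GPI+, and fell by 1.00 ± 0.27 on the log2 scale (limma adjusted p = 0.00736). Lipocalin 2 (Lcn2) fell by 1.15, the phagosomal metal transporter Slc11a1 by 0.92 and ferritin heavy chain (Fth1) by 0.81. Between the recipients 1 gene fell, the biliverdin reductase Blvrb (-1.01), and 1 rose, the heme-sensing repressor Bach1 (0.48). Against wild type 3 fell: Blvrb (-1.36), Fth1 (-0.78) and the heme transporter Slc48a1 (-0.74). All 9 erythroblast markers also fell against wild type, and 5 of the 9 fell between the recipients. Their part in these differences was not tested. The list medians were -0.55 in batch 1, -0.12 between the recipients and -0.16 against wild type. Hmox1 was 0.24 ± 0.25 and -0.48 ± 0.23 in these comparisons (limma adjusted p = 0.677 and 0.21). Its change in knock-out mice was lower than that between the recipients by 1.24 ± 0.37 (limma adjusted p = 0.0214).

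Of 15 genes for clearing dying cells and nuclei, 2 rose and 1 fell in KO GPI-, the cholesterol exporters Abca1 (1.00) and Abcg1 (0.72) and the engulfment regulator Dock1 (-0.63). These counts were not above the shares over all genes, 14.8% in each direction. Between the recipients the endocytic receptor Lrp1 (0.67) and the bridging ligand Pros1 (0.51) rose. Against wild type both rose again (0.88 and 0.75), while the scavenger receptor Cd36 fell by 1.55. The 9 erythroblast markers fell in that comparison too, and their part in the Cd36 difference was not tested. The list medians were 0.02, 0.08 and 0.27 on the log2 scale. Among 9 receptors and regulators of macrophages, 4 rose in KO GPI-, Maf (1.04), Id3 (0.80), Runx3 (0.62) and Tcf7l2 (0.54), and Spi1, which encodes PU.1, fell by 0.74. All 8 T and NK cell markers rose and all 6 neutrophil markers fell in the same comparison. Their part in this list was not tested. Between the recipients Csf1r alone of the 9 rose and 0 fell (0 also at an unadjusted p under 0.05). Against wild type 3 rose in recipients of knock-out marrow, Csf1r as given above, Runx3 by 0.47 and Spi1 by 0.41, and Id3 fell by 0.72. The medians of this list were 0.25, 0.28 and -0.02.

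Of 5 complement genes other than C1q that were tested, C5ar1 (-1.51), the receptor for an anaphylatoxin, and Cfp (-0.68), which encodes properdin, fell in KO GPI-. So did all 6 neutrophil markers, and their part in these falls was not tested. Cfp rose by 0.66 in recipients of knock-out marrow against wild type. Between the recipients limma called 0 of the 5 (1 higher at an unadjusted p under 0.05). The medians were -0.41, 0.16 and 0.18. Of 8 partners and relatives of VCAM-1, 5 rose in KO GPI-, with Icam1 (1.44), the integrin chains Itgb7 (1.35) and Itga4 (1.24), and Icam2 (0.97) foremost. Itga4 encodes a chain of the integrin that VCAM-1 binds. Maea, a macrophage and erythroblast adhesion protein, fell by 0.33. Itgb7 and Icam1 also rose in recipients of knock-out marrow, by 1.30 and 0.58 against recipients of wild-type marrow and by 1.53 and 0.56 against wild type. Icam4, an erythroid adhesion molecule, fell by 1.35 against wild type. The medians of these 8 were 0.76, 0.22 and 0.14.

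**Figure D5:**
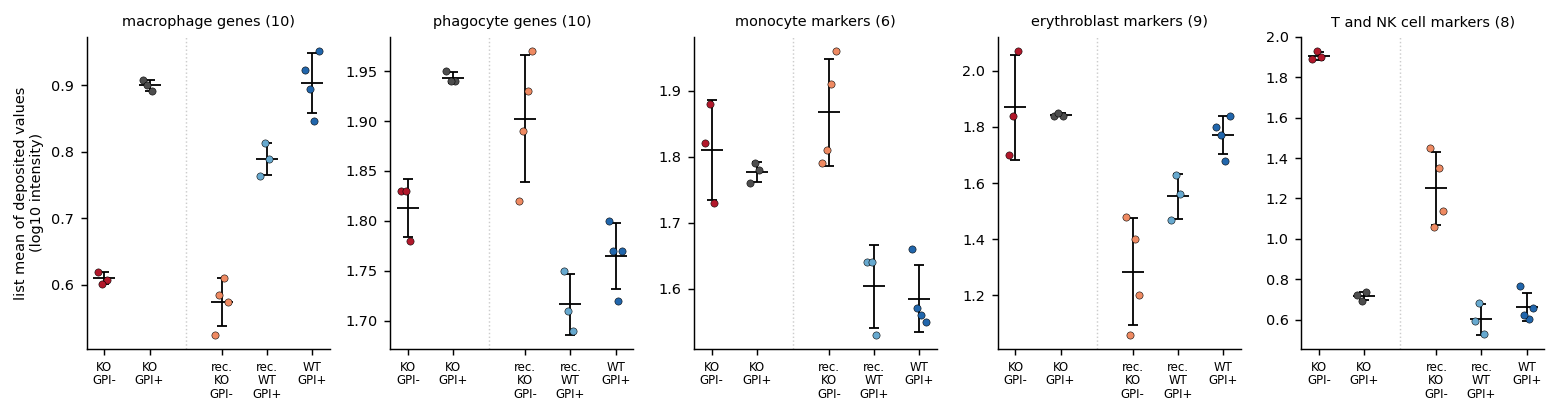
Mean deposited log10 value over each gene list on every array (points), by group, with the group mean and SD: the 10 resident macrophage genes, 10 genes shared by phagocytes, and markers of monocytes, erythroblasts and T and NK cells; each panel has its own y axis, which does not start at 0. The resident macrophage panel has the GPI-negative arrays of both batches lowest, at 0.525 to 0.62, and the T and NK cell panel has them highest.

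Markers of other cell types moved with the same groups. Their part in the results for the members and for the gene lists above was not tested. The mean log10 value of 8 T and NK cell markers was 1.89 to 1.93 in KO GPI-, against 0.693 to 0.736 in KO GPI+. It was 1.06 to 1.45 in recipients of knock-out marrow, against 0.528 to 0.68 in recipients of wild-type marrow and 0.605 to 0.765 in wild type, and all 8 rose in each of the 3 comparisons. All 6 monocyte markers rose in recipients of knock-out marrow, where their mean was 1.79 to 1.96, against 1.53 to 1.64 in recipients of wild-type marrow and 1.55 to 1.66 in wild type. In batch 1, 2 of them rose and 1 fell, with means of 1.73 to 1.88 in KO GPI- against 1.76 to 1.79 in KO GPI+. Neutrophil markers fell in KO GPI-, all 6 of them, with means of 2.59 to 2.66 against 2.97 to 3 in KO GPI+, and 2 of the 6 fell between the recipients and 1 against wild type. Of 8 dendritic cell markers, 6 rose in KO GPI- and 5 in each comparison of batch 2. Of 6 B cell markers, 4 rose in KO GPI- and 1 fell against wild type. Of 6 plasma cell markers, 4 fell and 1 rose in KO GPI-, and 2 rose against wild type.

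Erythroblasts, the cells that island macrophages hold, were followed through 9 markers. In KO GPI- the marker mean was 1.7, 2.07 and 1.84, against 1.84, 1.84 and 1.85 in KO GPI+, and limma called 0 of the 9 (1 lower at an unadjusted p under 0.05). In recipients of knock-out marrow it was 1.48, 1.4, 1.06 and 1.2, against 1.47, 1.56 and 1.63 in recipients of wild-type marrow and 1.8, 1.68, 1.77 and 1.84 in wild type. Of the 9, 5 fell against recipients of wild-type marrow and all 9 against wild type, and 1 fell in the recipients of wild-type marrow against untransplanted mice. In batch 1 the macrophage genes were thus lower with the erythroblast markers in overlapping ranges. Stromal cells, which also make VCAM-1, were followed through 8 tested markers, of which limma called 0 in each of the 3 comparisons (1, 1 and 0 at an unadjusted p under 0.05). Their mean log10 value was 0.417 to 0.49 in KO GPI-, against 0.412 to 0.452 in KO GPI+. It was 0.273 to 0.335 in recipients of knock-out marrow, against 0.279 to 0.364 in recipients of wild-type marrow and 0.277 to 0.338 in wild type. These means lay near the 40th percentile of the arrays, 0.423 in batch 1 and 0.311 in batch 2. The lack of calls on such dim markers cannot show that stromal RNA was unchanged. Of 5 endothelial markers 2 rose in KO GPI- and 0 were called in the other comparisons of GPI-negative cells (0 and 1 at an unadjusted p under 0.05). No marker of any list was listed at 0 on any array.

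How the members varied together was described by their likeness to the mean profile of all 10, over the 17 arrays with each gene centred within its batch. The points share their groups and arrays, and each member is part of the mean. Pearson's r was 0.971 for C1qa, 0.951 for Vcam1, 0.942 for C1qc, 0.937 for C1qb, 0.934 for Mrc1 and 0.911 for Cd5l. It was 0.872 for Axl, 0.846 for Slc40a1, 0.745 for Spic and 0.2 for Adgre1, so F4/80's gene followed the others least. The genes outside the members with the highest r were Fcna (0.95), Knl1 (0.93), Polh (0.924), Tecr (0.919), Cdca2 (0.912), Cpeb3 (0.904), Hipk2 (0.903), Carhsp1 (0.902), Tuba4a (0.901) and Cd24a (0.9). Cd24a encodes CD24, which was one of the sorting markers.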

How the data were processed

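Marrow RNA of 5 groups was measured on 17 arrays. All values come from the authors' deposited table, whose log10-like scale starts at 0 and ends at 3.857 (batch 1) or 3.895 (batch 2); the medians are 0.515 and 0.387. No source states the log base, which was inferred: the deposited log10 values of hybridisation control transcripts had a slope against log10 concentration of 1 ± 0.0854 (SD, n = 6 arrays, batch 1) and 1.15 ± 0.0361 (n = 11, batch 2). Sorted values were identical within each batch, the largest difference being 0, so the authors' deposited values had been quantile-normalized per batch. The submitters' processing notes name GCOS, with no role stated. How background was corrected and probes were summarised is not given in the sources used. Array precision is limited by the number of arrays.

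Values were converted to log2, and each array was shifted to 1 shared median. The planned design had assumed linear or log2 values. After 64 control probe sets were left out, 34945 probe sets carried 1 gene symbol in the platform annotation, 932 several, and 9160 are unnamed here; 34741 of the first were found in the RefSeq table of GRCm38.p6. Probe sets at or above the 40th percentile of their array on at least 3 arrays were kept (32426), and the brightest stood for its gene (14245 genes). Group means were fitted with limma 3.58.1 (lmFit, eBayes with trend, 12 residual degrees of freedom) in R 4.3.3. Comparisons were made within a batch. The kept probe sets also had a fit of their own. Promoters were searched with Python 3.11.15, and figures were drawn with matplotlib 3.10.9. The script was tested on simulated data.

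Members and lists were chosen with earlier results of these data known. Within each list, up to 4 called genes with the largest difference were named per comparison for the gene lists other than cell type markers, and Mertk, Csf1r, Siglec1, Cd163 and Hmox1 in any case. Il18bp, Tcf7l2, Maea, Vsig4 and Clec4f were named after their values were seen. The 10 genes most like the mean member profile were also named. The labels do not say whether replicate numbers pair the arrays, and the main fit used no pairing. Same-numbered arrays of the 2 fractions of batch 1 correlated at -0.0172, -0.0385 and -0.033 in their deviations from group means. The KO GPI+ arrays were too alike for these values to exclude a pairing. Alternatives were other filters, probe set rules, centring, array weights, a replicate block, leaving out each array and averaging the KO GPI+ arrays; a floor at the 40th percentile was added after seeing the data.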

Additional observations from a re-analysis of the deposited data

Results flagged for a closer look

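Adgre1 on the first array of the recipients of knock-out marrow, at 0.91 on the log10 scale, was far from the other arrays of its group (1.11 to 1.13). Slc40a1 on the fourth wild-type array, at 1.95, was apart from the other wild-type arrays, which all read 1.91. The step was small, with an SD of 0.0206 in this group against 0.0282 to 0.0851 in the other groups. Of 20 sets of 4 arrays examined in this way 2 were flagged, and chance singles out about 1 in 20. The difference between GPI-negative and GPI-positive cells was itself lower in knock-out mice than in recipients for Adgre1, by a log2 value of -0.97, and for Slc40a1, by -0.77, in limma's test of that contrast. That contrast crosses the 2 batches, and the cause was not tested.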

How the results depend on the processing

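Over 1015 alternative values of the members' differences, 975 kept their side of the threshold, 30 lost a call, 10 gained one and 0 reversed a call. The sign changed in 16 values, all of differences that were not called, and 15 of these belong to the knock-out difference minus that of the recipients. Vcam1, C1qa, C1qb, C1qc and Cd5l stayed called in the 3 comparisons of GPI-negative cells under each alternative run. Between the GPI-positive groups of batch 2, where 1 member was called, the count was 2 when probe sets of a gene were averaged, 3 with array weights, 2 with values floored at the 40th percentile (chosen after seeing the data) and 0 to 2 when each replicate was left out in turn. With replicate number as a block it was 0 (5 at an unadjusted p under 0.05); apart from C1qa there and Mrc1 between the recipients, the block changed no other call. For the knock-out difference minus that of the recipients, where 2 members were called, averaging the KO GPI+ arrays gave 0 (2 at an unadjusted p under 0.05). The floor moved the log2 difference of C1qa to -0.87 and of C1qc to -0.64 in KO GPI- against KO GPI+, and that of C1qc to -0.62 between the recipients. For all of these the cause was not tested. Dim probe sets, such as those of C1qa, C1qc, Siglec1 and Spic, limit how far their folds can be read.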
